A study of Mus musculus with 20 samples.

Results

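Ribosome biogenesis and nucleolar genes encode the factors that make ribosomes, and 50 of them are described here in cultured mouse eosinophils. The 50 were taken by gene symbol from a list that spans the steps of the pathway, and each is represented by its probe set on the array. The list was chosen with earlier results of these data known, so counts of its members are descriptions. The platform annotation gave 17771 genes a probe set of their own, and 48 of the 50 were among them. Fbl and Npm1, which encode fibrillarin and nucleophosmin, had no probe set with a single gene symbol. Nol9 lay under the brightness limit on all 20 arrays and was not tested. The other 47 members were above that limit on every array, and they are the members tested below, out of 11767 genes tested in all.

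Ribosomes are assembled in the nucleolus. There RNA polymerase I transcribes the precursor of the large ribosomal RNAs, small nucleolar ribonucleoproteins (snoRNPs) modify it, and the small-subunit processome folds and cuts it. Further factors then mature the small (40S) and the large (60S) subunit. In many cell types growth signals raise the genes of these factors together, in part through the transcription factor Myc, which binds DNA with its partner Max. Eosinophils are granulocytes of allergic inflammation, and IL-33 is an alarm cytokine that activates them.

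The cells were eosinophils grown from mouse bone marrow and taken on day 12 of culture. They came from 5 Dusp5+/+ mice (wild type) and 5 Dusp5-/- mice (knockout), and each mouse gave an untreated culture, in medium alone, and a culture that received IL-33 at 25 ng/ml over 4 hours. Each of the 4 groups, untreated wild type, untreated knockout, IL-33 wild type and IL-33 knockout, therefore holds 5 one-colour arrays, 1 per mouse. Arrays of a genotype with the same replicate number were taken as those of 1 mouse. Dusp5 encodes a nuclear phosphatase that switches off the kinases ERK1 and ERK2, and the labels do not say which part of the gene was deleted or in which cells. Levels are log2 values as the authors deposited them, and differences are log2 differences ± SE of a linear model with 5 arrays in each group. A gene is said to have risen or fallen where the Benjamini-Hochberg adjusted p of limma over all 11767 genes was under 0.05.

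The Dusp5 probe set read 8.15 ± 0.26 (SD, n = 5) in untreated wild-type and 4.40 ± 0.31 in untreated knockout cells, and 9.77 ± 0.35 and 4.95 ± 0.18 with IL-33, and no array went against its genotype label. Array medians lay between 4.25 and 4.32. All 6 eosinophil markers with a probe set (Siglecf, Ccr3, Il5ra, Epx, Prg2 and Prg3) were above the brightness limit on all arrays. So were 9 of 9 neutrophil markers, 9 of 9 markers of monocytes, macrophages and dendritic cells, and 8 of 8 stem and progenitor markers. Mast cell and basophil markers were above it on all arrays in 4 of 7 cases (Mcpt8, Cpa3, Fcer1a and Ms4a2). Lymphocyte markers were so in 4 of 7 (Cd3e, Cd3d, Cd79b and Nkg7), and erythroid and megakaryocyte markers in 3 of 4 (Klf1, Itga2b and Pf4). From these 3 lists the mast cell protease Mcpt4, the B cell marker Ms4a1 and the globin Hba-a1 were below the limit on all arrays. In such bulk samples, fewer cells of a type and less RNA per cell cannot be told apart. The sources used here name no batch.

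The stretch around each gene's start was searched for letters that Myc is known to bind. The search was chosen after the rises of members and of Myc had been seen. Of the 50 members, 42 were matched by symbol to RefSeq promoter windows (GRCm38.p6), which run from 250 bases before to 50 bases after a gene's start, and they had 47 windows. The letters CACGTG, the palindromic E-box that Myc and Max are known to bind and that reads the same on both strands, stood in 10 of the 47 windows (21.3%). They stood in 9.67% of the 12149 windows of all tested genes and in 7.15% of all 32851 windows. The 3 members with the E-box before the start are shown by the 250 bases in front of it, 5′ to 3′ on the strand of the gene, with the E-box in capitals. Nop2 (chr6:125131633-125131882, plus strand) makes a methyltransferase of the large-subunit RNA, Utp18 (chr11:93885767-93886016, minus strand) a processome subunit, and Nol11 (chr11:107189382-107189631, minus strand) a processome subunit that also supports rRNA transcription.
Nop2: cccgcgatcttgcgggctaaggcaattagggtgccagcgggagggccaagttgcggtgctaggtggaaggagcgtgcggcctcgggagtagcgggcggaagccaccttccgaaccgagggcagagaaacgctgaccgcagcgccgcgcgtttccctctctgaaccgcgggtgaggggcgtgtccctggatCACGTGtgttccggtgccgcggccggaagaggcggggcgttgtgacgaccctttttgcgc
Utp18: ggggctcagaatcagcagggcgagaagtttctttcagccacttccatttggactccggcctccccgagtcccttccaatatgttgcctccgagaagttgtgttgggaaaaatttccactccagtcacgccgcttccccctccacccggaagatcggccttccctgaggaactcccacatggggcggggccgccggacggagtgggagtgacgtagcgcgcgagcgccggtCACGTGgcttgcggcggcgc
Nol11: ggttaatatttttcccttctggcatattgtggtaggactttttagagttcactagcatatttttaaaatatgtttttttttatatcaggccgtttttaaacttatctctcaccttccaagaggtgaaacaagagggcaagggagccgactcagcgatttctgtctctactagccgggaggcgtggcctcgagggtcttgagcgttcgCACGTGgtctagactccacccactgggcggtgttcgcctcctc

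In the other 7 members the E-box lay after the start, and 30 bases around it are given to show how the flanks differ.
Pes1: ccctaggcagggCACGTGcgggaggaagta
Wdr43: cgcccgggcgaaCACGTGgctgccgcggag
Tsr1: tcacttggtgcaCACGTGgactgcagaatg
Ltv1: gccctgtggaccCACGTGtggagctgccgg
Utp20: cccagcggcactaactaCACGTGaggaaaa
Pno1: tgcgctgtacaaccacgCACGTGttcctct
Mybbp1a: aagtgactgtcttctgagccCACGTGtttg

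The 7 sites lie at chr11:3963965-3963994, chr17:71616220-71616249, chr11:74898092-74898121 and chr11:72441347-72441376 on the plus strand and at chr10:13193092-13193121, chr10:88826765-88826794 and chr11:17211540-17211569 on the minus strand. Of the 10 genes, Utp18, Nol11, Wdr43, Tsr1, Ltv1 and Pno1 rose with IL-33 in both genotypes and Nop2 in wild-type cells, Pes1 fell in knockout cells, and Utp20 and Mybbp1a passed the test in neither. Windows of members that rose in both genotypes held CACGTG in 6 of 24 cases, and those of the other tested members in 4 of 21. The letters CCGGAAG, a site of ETS transcription factors, were in 16 of the 47 windows (34.0%, both strands searched), in 16.2% of windows of tested genes and in 8.86% of all windows. The GC box GGGCGG, searched likewise, was in 34 of 47 (72.3%), 59.3% and 35.7%, and none of the 3 motifs contains another. The member windows were 59.3% G and C, close to the 60.2% of tested genes. These are matches of letters and no measure of binding, and the part of any of these factors in the members' changes was not tested.

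With IL-33, 25 of the 47 tested members rose in both genotypes. In wild-type cells 28 of 47 members rose and 4 fell, against a background of 16.1% of all genes that rose and 26.7% that fell. In knockout cells 29 rose and 6 fell, against 18.9% and 33.2%. The members' median difference was 0.25 (wild type) and 0.26 (knockout), while the median of all genes was -0.05 and -0.08 (0.01 in each genotype without the filter on dim genes). The changes were small in size: no member reached 2-fold in either genotype, and the largest was a 1.87-fold rise of Rrs1. With the mouse as a block, since both arrays of a mouse share it, 32 members rose and 7 fell in each genotype, and calls among all genes became more frequent too (2445 rose and 4356 fell in wild-type cells, 2761 and 4942 in knockout cells). With quantile normalization of the arrays 33 rose and 2 fell in wild-type and 35 rose and 2 fell in knockout cells, while of all genes 2145 rose and 2615 fell and 2675 rose and 3225 fell.

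Most of these calls were shared by the genotypes. Both called 25 as risen, which is 25 of 28 in wild-type and 25 of 29 in knockout cells, and both called Polr1a, Polr1c and Ncl as fallen. Of all genes tested, 1610 rose in both (of 1890 and 2228) and 2967 fell in both (of 3137 and 3909). Nop2, Polr1b and Rrp9 passed the test as rises in wild-type cells alone, and Heatr1, Nop14, Nop16 and Utp15 in knockout cells alone; the difference between genotypes is tested further on. Of the 25 members, 19 were called as risen in both genotypes under every alternative setting in which they were tested, which include leaving out each array in turn. There were 29 such settings, and 28 for Nol10 and Bop1, which the filter at the 60th percentile removed. The 19 are Nop56, Nolc1, Nol10, Nol11, Wdr43, Wdr75, Utp18, Bysl, Ltv1, Pno1, Tsr1, Noc3l, Bop1, Ppan, Rrs1, Rrp1b, Ddx18, Gnl3 and Ddx21. How many of the 1610 genes that rose in both kept their calls likewise was not counted.

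**Figure D1:**
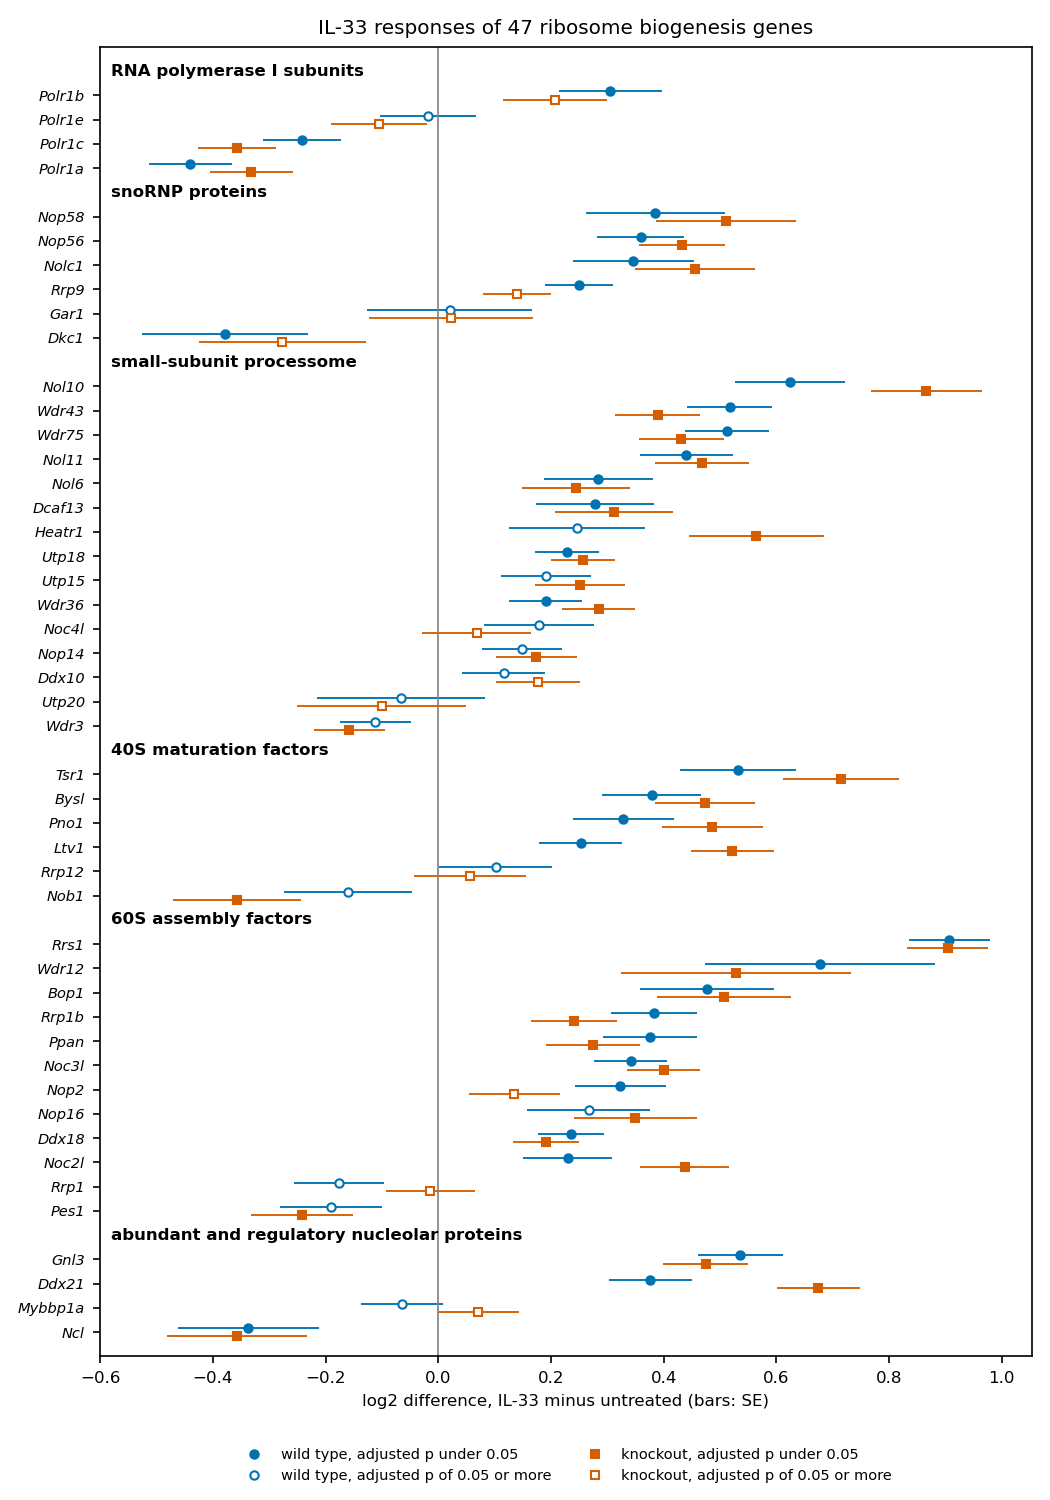
Log2 difference of IL-33 minus untreated arrays for the 47 tested members, sorted within 6 role classes, with bars of 1 SE; circles are wild type, squares knockout, and filled symbols have an adjusted p under 0.05. Rrs1 stands farthest to the right at 0.91 and 0.90. Polr1a, Polr1c, Polr1e, Dkc1, Wdr3, Utp20, Nob1, Pes1, Rrp1 and Ncl lie to the left of 0 in both genotypes.

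By role, the RNA polymerase I subunits had the lowest median difference of the 6 classes (-0.13 in wild-type and -0.22 in knockout cells). Among the 4 RNA polymerase I subunits tested, Polr1a and Polr1c fell in both genotypes and Polr1b rose in wild-type cells. Polr1a (probe set 1417775_at, chromosome 6), the largest and catalytic subunit, read 6.27, 6.24, 6.52, 6.35 and 6.47 in untreated cells of wild-type mice 1 to 5 and 6.14, 5.88, 5.86, 5.98 and 5.79 in their IL-33 cells (array values are listed by mouse, 1 to 5, throughout, and chromosomes are those of GRCm38.p6). Polr1a in knockout cells was at 6.37, 6.25, 6.15, 6.22 and 6.20 untreated and at 5.98, 5.88, 5.79, 5.93 and 5.95 with IL-33. The treated arrays lay below all untreated arrays in each genotype, and Polr1a fell by 0.44 ± 0.07 in wild-type (adjusted p = 7.33e-05) and by 0.33 ± 0.07 in knockout cells (adjusted p = 0.00085).

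Polr1c (probe set 1449648_s_at, chromosome 17), a subunit that RNA polymerase I shares with RNA polymerase III, read 8.22, 8.04, 8.22, 8.30 and 8.09 untreated and 8.04, 7.79, 7.94, 7.95 and 7.94 with IL-33 in wild type. Polr1c in knockout cells was at 8.23, 7.95, 8.13, 7.96 and 8.07 untreated and at 7.79, 7.75, 7.60, 7.71 and 7.71 with IL-33. Treated arrays lay below untreated ones in each genotype, in wild type by less than the second decimal between mouse 1 treated and mouse 2 untreated. The falls were -0.24 and -0.36 (SE 0.07, adjusted p = 0.00779 and 0.000225).

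Polr1b (probe set 1416126_at, chromosome 2), the second-largest subunit, moved the other way. It read 5.32, 5.07, 5.48, 5.43 and 5.03 untreated and 5.53, 5.67, 5.75, 5.54 and 5.37 with IL-33 in wild type. Polr1b in knockout cells was at 5.28, 5.23, 5.32, 5.25 and 5.23 untreated and at 5.50, 5.42, 5.35, 5.40 and 5.67 with IL-33. Each of the 10 mice was higher with IL-33. The rise passed the test in wild-type cells (0.31 ± 0.09, adjusted p = 0.0108) and not in knockout cells (0.21 ± 0.09, adjusted p = 0.0644), where the fixed mouse block gave an adjusted p of 0.0248. Polr1e (probe set 1419058_at, chromosome 4), which binds the catalytic core together with Polr1g, was the steadiest of the 4, with 5.12, 5.19, 5.15, 4.92 and 5.04 untreated and 5.19, 5.22, 4.88, 5.01 and 5.04 with IL-33 in wild type. Polr1e in knockout cells was at 5.22, 5.03, 5.15, 5.30 and 5.30 untreated and at 5.24, 4.86, 5.08, 5.05 and 5.24 with IL-33. Its differences of -0.02 ± 0.09 and -0.10 ± 0.09 did not pass the test.

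Of 10 other RNA polymerase I genes, 1 rose (10%) and 3 fell (30%) in each genotype. The shares of all genes were 16.1% and 26.7% in wild-type cells and 18.9% and 33.2% in knockout cells. The 1 of the 10 that rose in both was Rrn3, the initiation factor that brings the polymerase to the rRNA gene (0.47 ± 0.07 and 0.50 ± 0.07). The promoter factor Ubtf fell by 0.44 and the selectivity factor subunit Taf1d by 0.40 in knockout cells, with -0.29 and -0.33 in wild-type cells, neither past the threshold. The subunit Polr1d fell in both (-0.20 and -0.30).

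Of the 6 snoRNP proteins tested, 4 rose and 1 fell in wild-type cells, and 3 rose and none fell in knockout cells. Nop56 and Nop58 belong to the core of the box C/D particles, which guide methylation of the rRNA. Nop56 (probe set 1455035_s_at, chromosome 2) read 7.64, 7.51, 7.74, 7.52 and 7.46 untreated and 8.10, 7.88, 8.06, 7.88 and 7.75 with IL-33 in wild type. Nop56 in knockout cells was at 7.37, 7.33, 7.46, 7.45 and 7.52 untreated and at 7.99, 7.81, 7.76, 7.76 and 7.97 with IL-33. No treated array overlapped an untreated one of its genotype, and the rises were 0.36 ± 0.08 (adjusted p = 0.000788) and 0.43 ± 0.08 (adjusted p = 8.8e-05).

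Nop58 (probe set 1450986_at, chromosome 1) varied more between mice. In wild type it read 8.06, 7.62, 8.29, 7.62 and 7.83 untreated and 8.59, 8.16, 8.37, 8.16 and 8.08 with IL-33. Nop58 in knockout cells was at 7.81, 7.57, 7.83, 7.77 and 7.69 untreated and at 8.42, 8.02, 8.26, 8.13 and 8.39 with IL-33. The groups overlapped in wild type, where the untreated value of mouse 3 exceeded 3 of the treated ones, and not in the knockout. The rise of 0.39 ± 0.12 in wild-type cells (adjusted p = 0.0161) was lost without the untreated array of mouse 4 (0.0511) or the IL-33 array of mouse 1 (0.0518), and the rise in knockout cells was 0.51 ± 0.12 (adjusted p = 0.00172).

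Nolc1 (probe set 1428869_at, chromosome 19), a chaperone of snoRNPs in the nucleolus and Cajal body, read 6.78, 6.76, 6.86, 6.62 and 6.65 untreated and 7.40, 7.20, 6.95, 6.99 and 6.86 with IL-33 in wild type. Nolc1 in knockout cells was at 6.69, 6.47, 6.61, 6.57 and 6.69 untreated and at 7.13, 6.92, 6.81, 7.03 and 7.42 with IL-33. It rose by 0.35 ± 0.11 and 0.46 ± 0.11, and all 10 mice were higher with IL-33. In wild type the treated value of mouse 5 met the untreated value of mouse 3, and in the knockout the groups did not overlap.

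Gar1 (probe set 1418305_s_at, chromosome 3), a core protein of the box H/ACA particles, which guide pseudouridylation, read 8.70, 8.10, 8.81, 8.48 and 8.58 untreated and 8.74, 8.20, 8.79, 8.49 and 8.56 with IL-33 in wild type. Gar1 in knockout cells was at 8.51, 7.97, 8.56, 8.17 and 8.24 untreated and at 8.54, 8.02, 8.49, 8.12 and 8.39 with IL-33, and each mouse stayed close to its own level. The differences were 0.02 ± 0.15 and 0.02 ± 0.15. Dkc1, the pseudouridine synthase itself, fell by 0.38 ± 0.15 in wild-type cells (adjusted p = 0.0447); the call was kept under 18 of the 29 alternatives, with an adjusted p of up to 0.143 without the untreated array of wild-type mouse 3. In knockout cells it was -0.28 ± 0.15 (adjusted p = 0.122), and 0.0131 with the fixed mouse block. Rrp9, the U3 snoRNP protein, rose by 0.25 ± 0.06 in wild-type cells and was 0.14 ± 0.06 in knockout cells, where the fixed mouse block gave an adjusted p of 0.0350.

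Among 11 other snoRNP genes, 3 rose and 1 fell in wild-type and 5 rose and 2 fell in knockout cells. Tgs1, which methylates the cap of snRNAs and snoRNAs, rose most (1.02 ± 0.12 and 1.11 ± 0.12, 2-fold or more in both). The assembly factor Nufip1 rose (0.36 and 0.32) and its partner in the assembly machinery Pih1d1 fell (-0.29 and -0.42).

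The small-subunit processome is the large particle that forms on the U3 snoRNP and the nascent transcript. Of its 15 tested members 8 rose and none fell in wild-type cells, and 11 rose and 1 fell in knockout cells. Nol10 (probe set 1433739_at, chromosome 12), a component of its core, changed most. It read 4.33, 4.16, 4.61, 4.53 and 4.42 untreated and 4.99, 4.87, 5.24, 5.07 and 4.99 with IL-33 in wild type. Nol10 in knockout cells was at 4.27, 4.29, 4.15, 3.86 and 4.05 untreated and at 5.08, 4.77, 5.00, 5.00 and 5.10 with IL-33. The groups were well apart, and Nol10 rose by 0.62 ± 0.10 in wild-type (1.54-fold, adjusted p = 3.54e-05) and by 0.87 ± 0.10 in knockout cells (1.82-fold, adjusted p = 3.86e-07).

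Wdr43 (probe set 1428389_s_at, chromosome 17), of the UTPA complex that binds the transcript first, read 6.24, 6.27, 6.09, 6.18 and 5.93 untreated and 6.72, 6.66, 6.71, 6.52 and 6.69 with IL-33 in wild type. Wdr43 in knockout cells was at 6.18, 6.21, 6.21, 6.23 and 6.33 untreated and at 6.53, 6.63, 6.53, 6.55 and 6.87 with IL-33. All treated arrays were above all untreated ones, and the rises were 0.52 ± 0.08 (adjusted p = 1.5e-05) and 0.39 ± 0.08 (adjusted p = 0.000222). Other subunits of UTPA rose alongside: Wdr75 by 0.51 and 0.43, Nol11 by 0.44 and 0.47, and, from the wider pathway list, Utp4 by 0.64 and 0.70. Utp15 was 0.19 in wild-type cells (adjusted p = 0.0602, 0.00461 with the fixed mouse block) and rose by 0.25 in knockout cells.

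Heatr1 (probe set 1437965_at, chromosome 13), the remaining large UTPA subunit, rose in knockout cells. It read 4.27, 4.03, 4.20, 4.42 and 4.39 untreated and 4.11, 4.66, 4.47, 4.71 and 4.58 with IL-33 in wild type. Heatr1 in knockout cells was at 4.30, 4.31, 4.06, 4.24 and 4.37 untreated and at 5.12, 4.71, 4.76, 5.02 and 4.50 with IL-33. In wild type mouse 1 went down while the other 4 went up, and the difference of 0.25 ± 0.12 did not pass the test (adjusted p = 0.106); without that IL-33 array it did (0.0183). The knockout rise was 0.56 ± 0.12 (adjusted p = 0.000562).

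Of the remaining processome members, 1 fell in knockout cells, some passed no test and others rose. Wdr3 (probe set 1433746_at, chromosome 3), of the UTPB complex, read 8.52, 8.70, 8.66, 8.51 and 8.50 untreated and 8.58, 8.43, 8.37, 8.49 and 8.45 with IL-33 in wild type. Wdr3 in knockout cells was at 8.59, 8.61, 8.57, 8.51 and 8.60 untreated and at 8.47, 8.30, 8.34, 8.42 and 8.55 with IL-33, differences of -0.11 ± 0.06 and -0.16 ± 0.06. The knockout fall (adjusted p = 0.04) was lost in 7 of the fits that left out 1 array, with an adjusted p of up to 0.110 without the IL-33 array of mouse 2, and with quantile normalization (0.191). Utp20 was -0.07 ± 0.15 and -0.10 ± 0.15, with neither past the threshold. Noc4l (0.18 and 0.07) and the helicase Ddx10 (0.12 and 0.18) did not pass it either, but with the fixed mouse block Noc4l rose in wild-type (0.0140) and Ddx10 in knockout cells (0.0142). The other members, Nol6, Dcaf13, Utp18, Wdr36 and Nop14, had differences between 0.15 and 0.31; all but Nop14 rose in both genotypes, and Nop14 in knockout cells alone (0.17, adjusted p = 0.0473, kept under 13 of the 29 alternatives). In wild-type cells Nop14 passed with the fixed mouse block (0.0321). The calls of Nol6, Dcaf13 and Wdr36 were lost under some fits without 1 array, with adjusted p of up to 0.128, 0.116 and 0.0625.

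Outside the member list, 12 of 33 other small-subunit genes rose and 1 fell in wild-type cells, and 15 rose and 4 fell in knockout cells. The median was 0.19 and 0.24. After Utp4 the largest rises were those of Utp23 (0.47 and 0.66), Utp11 (0.50 and 0.35) and Mphosph10 (0.40 and 0.46), all processome subunits.

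The factors that mature the 40S subunit after it leaves the processome rose in 4 of 6 cases in each genotype. Tsr1 (probe set 1455643_s_at, chromosome 11), a GTPase-like protein that keeps the immature particle from starting translation, read 7.58, 7.43, 7.50, 7.43 and 7.23 untreated and 8.21, 7.82, 8.06, 7.92 and 7.81 with IL-33 in wild type. Tsr1 in knockout cells was at 7.39, 7.20, 7.46, 7.31 and 7.56 untreated and at 8.16, 7.83, 8.32, 7.93 and 8.25 with IL-33. Treated arrays were all above untreated ones, and Tsr1 rose by 0.53 ± 0.10 (1.45-fold, adjusted p = 0.000308) and 0.71 ± 0.10 (1.64-fold, adjusted p = 8.19e-06).

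Ltv1 (probe set 1426813_at, chromosome 10), an export and assembly factor, read 7.81, 7.76, 7.96, 7.76 and 7.89 untreated and 8.27, 8.07, 8.02, 8.04 and 8.06 with IL-33 in wild type. Ltv1 in knockout cells was at 7.82, 7.53, 7.68, 7.45 and 7.59 untreated and at 8.23, 8.03, 8.17, 8.08 and 8.15 with IL-33. No treated array overlapped an untreated one, the treated levels of the genotypes overlapped, and untreated Ltv1 lay under every wild-type array in 4 of 5 knockout mice. It rose by 0.25 ± 0.07 in wild-type (adjusted p = 0.00854) and by 0.52 ± 0.07 in knockout cells (adjusted p = 6.15e-06).

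Pno1 (probe set 1450735_at, chromosome 11), which shields the cleavage site at the end of the small-subunit rRNA, read 7.70, 7.52, 7.79, 7.50 and 7.70 untreated and 8.09, 8.03, 7.90, 8.01 and 7.83 with IL-33 in wild type. Pno1 in knockout cells was at 7.69, 7.31, 7.65, 7.28 and 7.44 untreated and at 8.11, 7.89, 8.08, 7.82 and 7.91 with IL-33. It rose by 0.33 ± 0.09 and 0.49 ± 0.09 with no overlap. Bysl, a factor of the same particle, rose by 0.38 ± 0.09 and 0.47 ± 0.09. Nob1, the endonuclease that makes the cut, went the other way, with -0.16 ± 0.11 in wild-type cells (adjusted p = 0.272) and a fall of 0.36 ± 0.11 in knockout cells (adjusted p = 0.0122); with the fixed mouse block the wild-type difference also passed (0.0186), and with quantile normalization the knockout fall did not (0.0622).

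Rrp12 (probe set 1434239_at, chromosome 19), an export factor, had the smallest differences of this class. It read 5.60, 5.51, 5.84, 5.59 and 5.59 untreated and 5.98, 5.67, 5.83, 5.68 and 5.48 with IL-33 in wild type. Rrp12 in knockout cells was at 5.64, 5.41, 5.50, 5.54 and 5.61 untreated and at 5.72, 5.44, 5.44, 5.48 and 5.90 with IL-33. The groups overlapped throughout, with 3 of 5 mice higher in each genotype (0.10 ± 0.10 and 0.06 ± 0.10).

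Among the 60S assembly factors, 9 of 12 rose and none fell in wild-type cells, and 9 rose and 1 fell in knockout cells. Rrs1 (probe set 1416998_at, chromosome 1), which brings the 5S particle into the large subunit, was the most changed member of all. It read 7.77, 7.67, 7.87, 7.69 and 7.68 untreated and 8.71, 8.52, 8.82, 8.59 and 8.57 with IL-33 in wild type. Rrs1 in knockout cells was at 7.63, 7.60, 7.67, 7.62 and 7.79 untreated and at 8.66, 8.44, 8.56, 8.46 and 8.70 with IL-33. All treated arrays were at 8.44 or above and all untreated arrays at 7.87 or below, and Rrs1 rose by 0.91 ± 0.07 (adjusted p = 3.59e-09) and by 0.90 ± 0.07 (adjusted p = 2.46e-09).

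Bop1, Wdr12 and Pes1 form the PeBoW complex, which is needed for processing of the large-subunit rRNA, and their calls were in both directions. Bop1 (probe set 1430491_at, chromosome 15) read 4.24, 4.22, 3.99, 3.90 and 3.92 untreated and 4.24, 4.89, 4.43, 4.68 and 4.42 with IL-33 in wild type. Bop1 in knockout cells was at 4.15, 4.31, 4.34, 4.46 and 4.30 untreated and at 4.78, 5.08, 4.69, 4.99 and 4.55 with IL-33. Wild-type mouse 1 stayed where it was and the other 9 mice went up, and Bop1 rose by 0.48 ± 0.12 and 0.51 ± 0.12 (adjusted p = 0.00287 and 0.00132).

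Wdr12 (probe set 1448646_at, chromosome 1) had the largest SD between mice of all members in 3 of the 4 groups. It read 7.28, 6.74, 7.99, 7.13 and 7.51 untreated and 8.19, 7.45, 8.33, 7.91 and 8.16 with IL-33 in wild type. Wdr12 in knockout cells was at 7.23, 6.61, 7.04, 6.81 and 6.99 untreated and at 7.88, 7.12, 7.72, 7.26 and 7.35 with IL-33. The groups overlapped, yet each of the 10 mice was higher with IL-33. The rises were 0.68 ± 0.20 (adjusted p = 0.0111) and 0.53 ± 0.20 (adjusted p = 0.0359); the second was lost in 5 of the fits without 1 array, with an adjusted p of up to 0.0974 without the IL-33 array of mouse 1. Pes1 was -0.19 ± 0.09 in wild-type cells (adjusted p = 0.0946, 0.00421 with the fixed mouse block) and fell by 0.24 ± 0.09 in knockout cells (adjusted p = 0.0299), where the call was lost in 5 of the fits without 1 array, with an adjusted p of up to 0.0862 without the untreated array of mouse 1, and with quantile normalization (0.123).

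Rrp1 (probe set 1415957_a_at, chromosome 10), an early large-subunit factor, read 7.29, 7.24, 7.11, 7.08 and 7.18 untreated and 7.17, 7.16, 6.68, 6.96 and 7.04 with IL-33 in wild type. Rrp1 in knockout cells was at 7.13, 7.16, 7.05, 7.22 and 7.19 untreated and at 7.18, 7.14, 7.07, 7.09 and 7.19 with IL-33. All 5 wild-type mice were lower with IL-33, by 0.18 ± 0.08, which did not pass the test (adjusted p = 0.0803) but did with the fixed mouse block (0.0188). In the knockout the difference was -0.01 ± 0.08. Its paralog Rrp1b rose by 0.38 and 0.24.

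The remaining 60S factors lay between 0.13 and 0.44. Noc3l, Ppan, Ddx18 and Noc2l rose in both genotypes, Noc2l by 0.23 in wild-type and 0.44 in knockout cells; its wild-type call was lost without the untreated array of mouse 3 (adjusted p = 0.0746), or without the IL-33 array of mouse 2 (0.0503) or mouse 4 (0.0687). Nop2 rose by 0.32 in wild-type cells and was 0.13 ± 0.08 in knockout cells (adjusted p = 0.171). Nop16, which Myc is known to induce, was 0.27 ± 0.11 in wild-type cells (adjusted p = 0.0541, 0.00484 with the fixed mouse block) and rose by 0.35 in knockout cells.

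In the wider large-subunit list 17 of 38 genes rose and 2 fell in wild-type cells, and 20 rose and 3 fell in knockout cells, with a median of 0.18 and 0.24. This list held larger changes than the members. The GTPase Gtpbp4 rose by 1.11 ± 0.16 and 1.60 ± 0.16, Pwp1 by 1.12 ± 0.12 and 1.28 ± 0.12, the export adaptor Nmd3 by 0.57 ± 0.07 and 0.81 ± 0.07, and Urb2 by 0.49 ± 0.08 and 0.55 ± 0.08. The exosome and rRNA decay genes were mixed: of 14, 2 rose and 3 fell in wild-type and 3 rose and 3 fell in knockout cells. In wild-type cells these are 14.3% and 21.4% of the list, against 16.1% and 26.7% of all genes. In knockout cells they are 21.4% each way, against 18.9% and 33.2% of all genes. The exosome subunits Exosc5 (-0.52 and -0.68) and Exosc7 (-0.45 and -0.57) fell, while the subunit Exosc3 (0.45 and 0.54) and the nuclease Dis3 (0.36 and 0.48) rose.

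The last class holds nucleolar proteins that are abundant or regulatory. Gnl3 (probe set 1433656_a_at, chromosome 14), the GTPase nucleostemin, read 6.98, 7.16, 7.22, 6.99 and 6.89 untreated and 7.67, 7.57, 7.74, 7.49 and 7.46 with IL-33 in wild type. Gnl3 in knockout cells was at 6.94, 6.96, 7.08, 7.07 and 7.14 untreated and at 7.49, 7.50, 7.48, 7.41 and 7.67 with IL-33. No treated array overlapped an untreated one, and the rises were 0.54 ± 0.08 (adjusted p = 9.67e-06) and 0.47 ± 0.08 (adjusted p = 2.63e-05).

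Ddx21 (probe set 1448270_at, chromosome 10), an RNA helicase that couples rRNA transcription to processing, read 7.64, 7.55, 7.52, 7.47 and 7.51 untreated and 7.96, 7.95, 8.01, 7.87 and 7.78 with IL-33 in wild type. Ddx21 in knockout cells was at 7.40, 7.27, 7.42, 7.47 and 7.68 untreated and at 8.14, 8.03, 8.09, 8.05 and 8.30 with IL-33. The treated knockout arrays lay above all treated wild-type arrays. Ddx21 rose by 0.38 ± 0.07 (1.30-fold, adjusted p = 0.000377) in wild-type and by 0.67 ± 0.07 (1.60-fold, adjusted p = 2.5e-07) in knockout cells.

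Ncl (probe set 1415772_at, chromosome 1), which encodes nucleolin, fell in both. It read 7.21, 7.20, 7.63, 7.34 and 7.49 untreated and 7.10, 6.69, 7.22, 6.98 and 7.19 with IL-33 in wild type. Ncl in knockout cells was at 7.30, 6.99, 7.14, 7.16 and 7.32 untreated and at 6.87, 6.64, 6.57, 6.78 and 7.25 with IL-33. All 10 mice were lower with IL-33, although the groups overlapped. The falls of -0.34 ± 0.12 (adjusted p = 0.0347) and -0.36 ± 0.12 (adjusted p = 0.0212) were each lost in 4 of the fits without 1 array, with adjusted p of up to 0.110 without the IL-33 array of wild-type mouse 2 and 0.0661 without that of knockout mouse 3, and with quantile normalization (0.0807 and 0.115 in turn). Mybbp1a (probe set 1423430_at, chromosome 11), a Myb-binding protein that represses rRNA synthesis, read 6.46, 6.24, 6.32, 6.38 and 6.35 untreated and 6.50, 6.30, 6.26, 6.18 and 6.19 with IL-33 in wild type. Mybbp1a in knockout cells was at 6.26, 6.17, 6.27, 6.18 and 6.27 untreated and at 6.35, 6.15, 6.31, 6.21 and 6.48 with IL-33. It was the steadiest of this class (-0.06 ± 0.07 and 0.07 ± 0.07); with quantile normalization the knockout difference passed the test (0.00846).

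**Figure D2:**
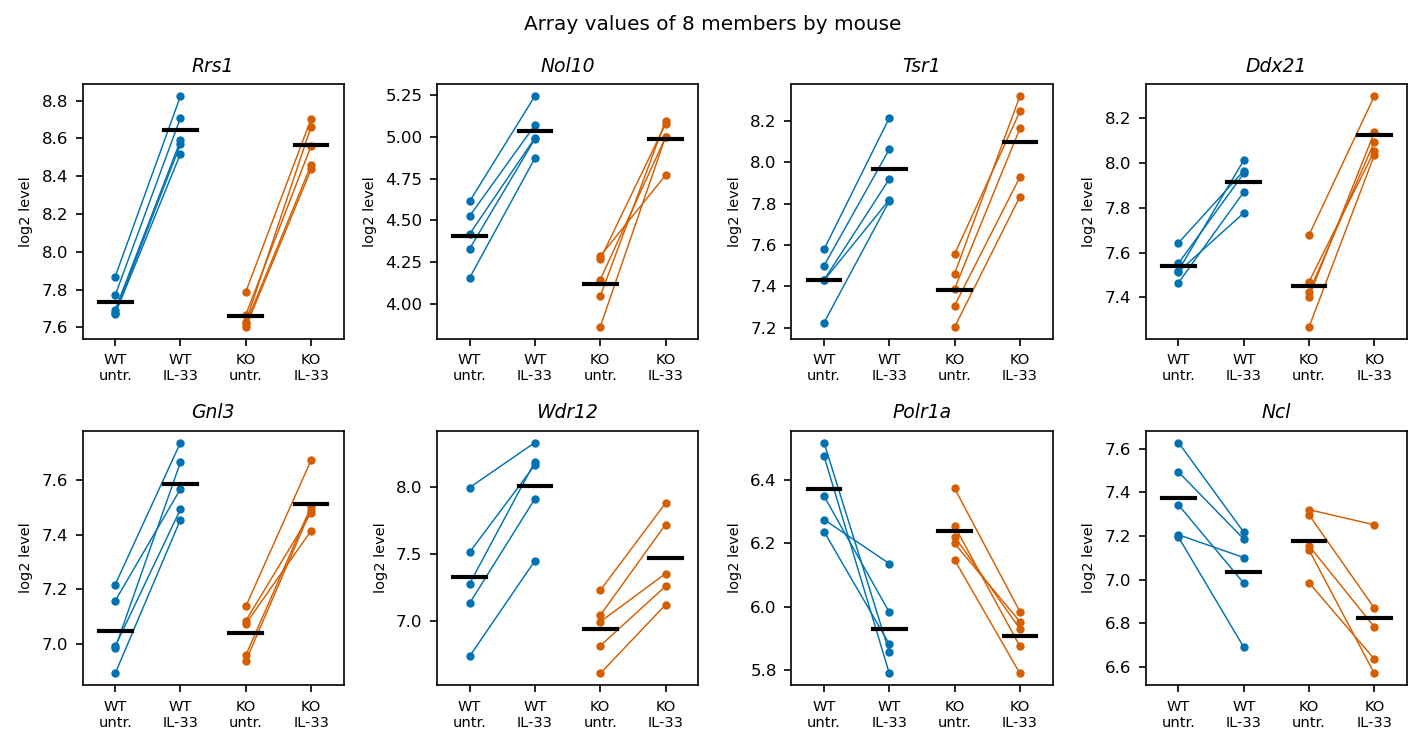
Log2 level of 8 members on each array, with lines that join the untreated and IL-33 arrays of a mouse and black bars at group means (blue wild type, orange knockout; n = 5 mice each; the axes do not start at 0). Rrs1, Nol10, Tsr1, Ddx21 and Gnl3 separate without overlap within a genotype, Wdr12 goes up from a different level in each mouse, and Polr1a and Ncl go down.

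Ribosomal protein genes, whose products the pathway assembles with the rRNA, were compared next. Of 79 ribosomal protein genes listed, 35 had an unambiguous probe set and 29 were tested. None rose in either genotype, where 16.1% (wild type) and 18.9% (knockout) of all genes rose. In wild-type cells 2 fell (6.9%) and in knockout cells 4 (13.8%), less often than the 26.7% and 33.2% of all genes. The median difference was -0.05 and -0.07, near the -0.05 and -0.08 of all genes. Rps3 (-0.41 and -0.51) and Rpl14 (-0.37 and -0.46) fell in both, Rpl13a (-0.26) and Rpl11 (-0.12) in knockout cells. At unadjusted p under 0.05 the limma counts were 4 and 6 of 29, and 5902 and 6835 of all 11767 genes. Of 18 proliferation genes none rose either, 4 fell in wild-type and 6 in knockout cells (6 and 8 at unadjusted p under 0.05 in limma). These are 22.2% and 33.3% of the list, near the 26.7% and 33.2% of all genes that fell. The largest falls called in both genotypes were those of the replication helicase genes Mcm7 (-0.90 and -1.09) and Mcm2 (-0.78 and -0.84). Of 8 stem and progenitor markers, 4 (50%, wild type) and 5 (62.5%, knockout) fell, against 26.7% and 33.2% of all genes. The mean of the 6 eosinophil markers was lower with IL-33 in all 10 mice. It was lower by a mean of 0.32 in wild type and 0.39 in the knockout. Of the 6, 2 fell in each genotype (33.3%, against 26.7% and 33.2% of all genes). The lymphocyte markers were also lower on average in all 10 mice, although 2 of the 5 tested had differences above 0 in each genotype. So was the mean of the erythroid and megakaryocyte markers. The neutrophil mean was higher in 1 wild-type mouse and lower in the others. Means of the monocyte, macrophage and dendritic list and of the mast cell and basophil list went both ways. The stem and progenitor markers' summed level, as log2 of the summed linear values, lay between 11.21 and 11.88 in untreated and 11.03 and 11.67 in IL-33 wild-type cells. In the knockout it lay between 11.05 and 11.35 untreated and between 10.76 and 11.06 with IL-33. The part of these markers in the members' changes was not tested.

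Myc, which activates many genes of this pathway, read 6.43, 6.50, 6.71, 6.37 and 6.10 untreated and 7.59, 7.71, 7.71, 7.37 and 7.22 with IL-33 in wild type. Myc in knockout cells was at 6.27, 6.52, 6.38, 6.53 and 6.60 untreated and at 7.58, 7.48, 7.72, 7.72 and 7.94 with IL-33. It rose by 1.10 ± 0.12 (2.14-fold, adjusted p = 2.07e-07) and 1.22 ± 0.12 (2.33-fold, adjusted p = 2.86e-08). The genes of proteins that compete with Myc for Max fell: Mxd1 by 1.47 ± 0.10 and 1.63 ± 0.10, Mxd4 by 1.16 ± 0.12 and 1.40 ± 0.12, and Mxi1 by 0.72 ± 0.07 and 0.91 ± 0.07. Of the 10 network genes tested, 1 rose and 5 fell in wild-type and 3 rose and 5 fell in knockout cells. The part of Myc and its network in the members' changes was not tested. In the list of nucleolar stress and p53 genes, the cell cycle inhibitor Cdkn1a (1.03 and 1.47) and the p53 regulators Mdm4 (0.38 and 0.46) and Mdm2 (0.25 and 0.29) rose in both genotypes.

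**Figure D3:**
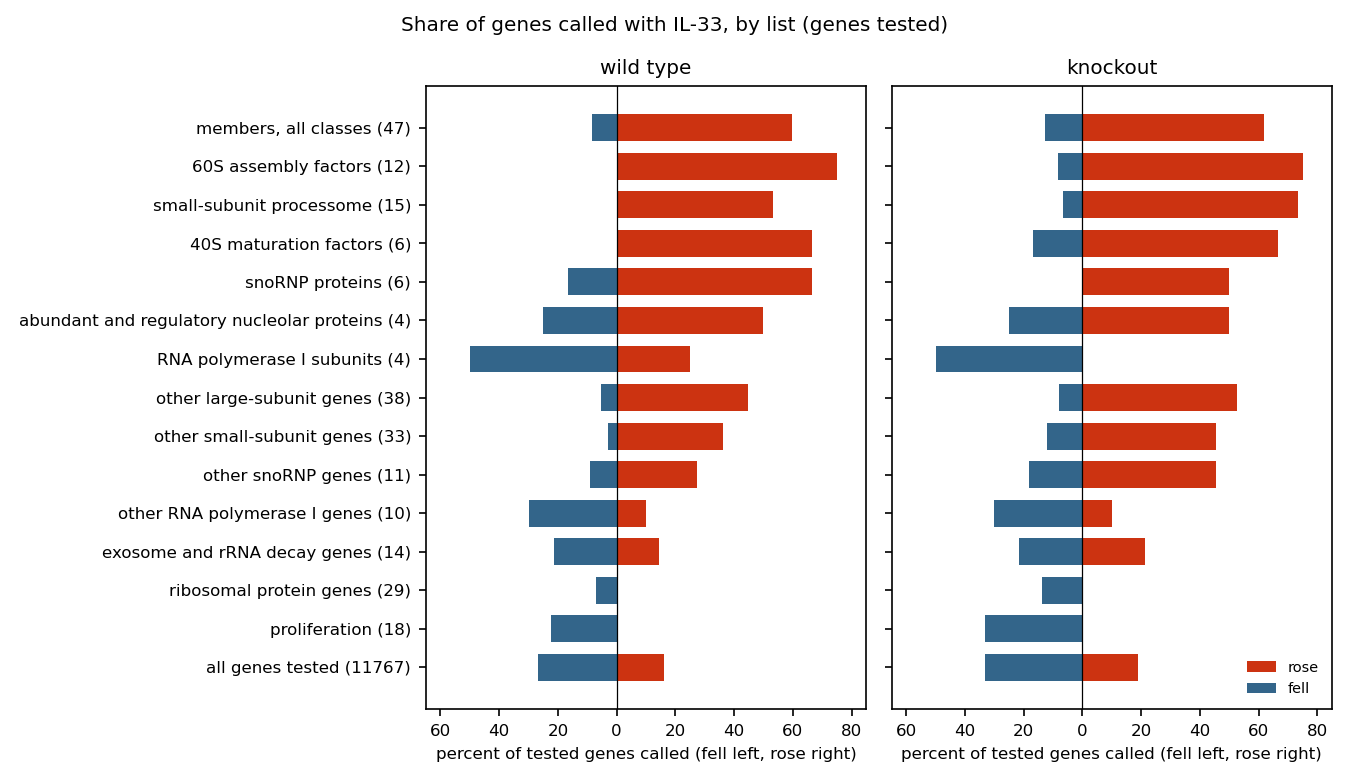
Percent of the tested genes of each list that rose (right) or fell (left) with IL-33 in each genotype (wild type and knockout as separate bars), with the number tested in parentheses and all 11767 genes in the lowest bar. The members and the small- and large-subunit lists have longer bars to the right than all genes, and the ribosomal protein and proliferation lists have none to the right.

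The mean log2 level of the 47 members was 6.86 ± 0.07 (SD, n = 5) in untreated and 7.08 ± 0.06 in IL-33 wild-type cells, and 6.79 ± 0.07 and 7.03 ± 0.08 in knockout cells. All 10 mice moved up, by 0.14 to 0.27 in wild type and by 0.19 to 0.30 in the knockout. The mean hides members that went the other way, since 36 of 47 differences were above 0 in wild type and 37 in the knockout. Of all 11767 genes 5134 and 5028 were above 0. Mouse 2, a different animal in each genotype, had the lowest mean of the untreated arrays in each genotype and of the IL-33 knockout arrays. In IL-33 wild-type cells the lowest mean was that of mouse 5 (7.02, with 7.04 in mouse 2). In Gar1 and Wdr12, mouse 2 was lowest in all 4 groups, and in Nob1 it was highest in all 4. The mean of the 18 proliferation genes was also lowest in mouse 2, at 8.17 untreated in wild type (8.94 to 9.73 in the other mice) and 7.97 in the knockout (8.03 to 9.01). Its part in the members' levels was not tested.

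**Figure D4:**
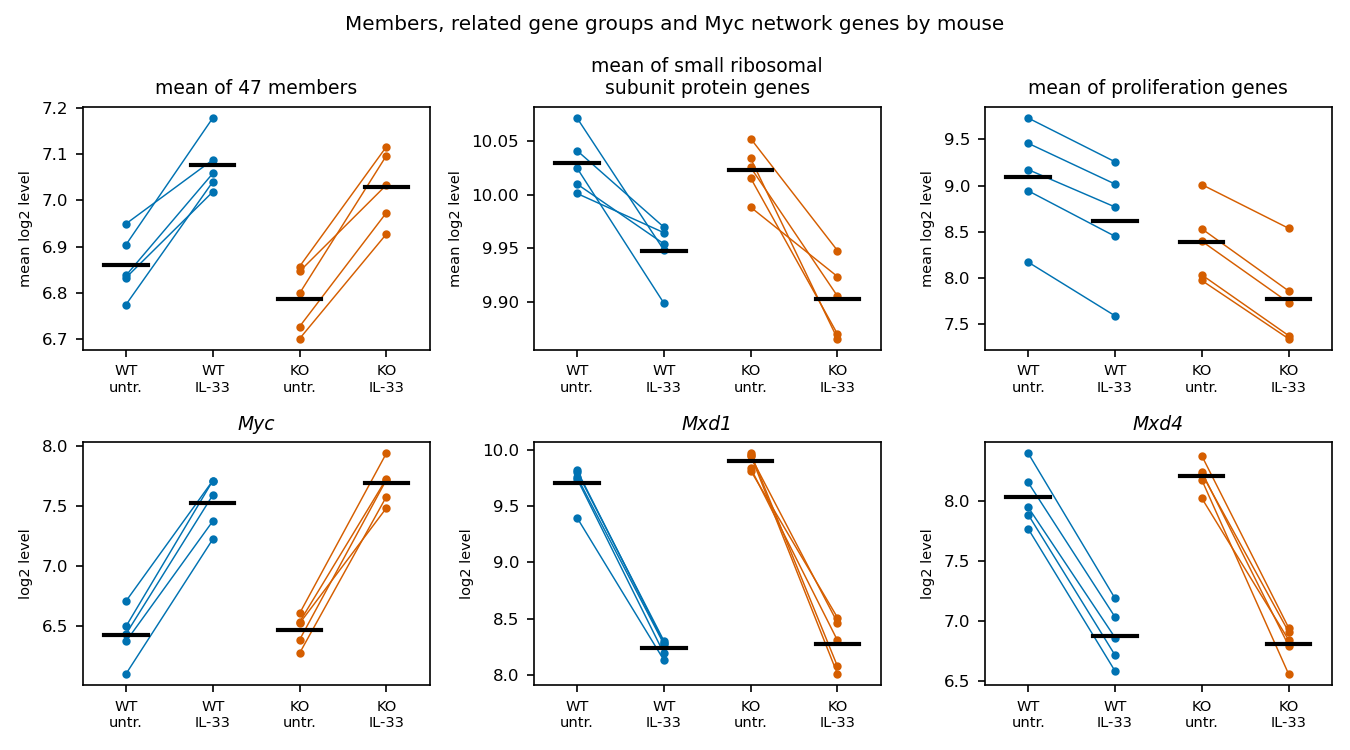
Mean log2 level of the 47 members, of 15 small ribosomal subunit protein genes and of 18 proliferation genes, and log2 level of Myc, Mxd1 and Mxd4, per array, with lines joining the arrays of a mouse and black bars at group means (n = 5 mice per genotype; the axes do not start at 0). The mean of the members and Myc go up in all 10 mice, and the other 4 panels go down in all 10.

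Knockout and wild-type cells were then compared within each treatment. No member passed the test in either comparison, whereas 0.0255% of all genes (3) did so in untreated and 2.21% (260) in IL-33 cells. Before adjustment, p was under 0.05 for 4 of 47 members untreated (1517 of all genes) and for 9 of 47 after IL-33 (2837 of all genes). The median of the members was -0.09 untreated and -0.05 after IL-33, and 10 and 14 of the 47 were higher in the knockout. Of all 11767 genes 5737 and 5075 were higher. The 95% intervals of the members reached from -0.82 to 0.51 at the widest in untreated and from -0.97 to 0.56 in IL-33 cells, with a median SE of 0.08 over the members. The count of all genes called after IL-33 varied with single arrays, from 33 without the IL-33 array of wild-type mouse 5 to 1659 without that of wild-type mouse 2 and 1049 without that of knockout mouse 1. It was 514 with the mouse as a random block, which called no member either.

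Since p under 0.05 before adjustment was no more frequent among the members than among all genes, the differences below are descriptions. Members with such p came from several role classes. Wdr12 was lower in the knockout by 0.39 untreated (95% interval -0.82 to 0.03) and 0.54 after IL-33 (-0.97 to -0.12). Its adjusted p after IL-33 was 0.124, and 0.0312 without the IL-33 array of wild-type mouse 2. Bop1, its partner in the PeBoW complex, was higher in the knockout by 0.26 (0.01 to 0.51) and 0.29 (0.04 to 0.54), with an adjusted p of 0.149 after IL-33 and 0.0346 without the same array. Utp20 was -0.28 ± 0.15 untreated and -0.31 ± 0.15 after IL-33, with an adjusted p of 0.203 after IL-33. Other processome genes were also lower in the knockout after IL-33, Wdr75 by 0.20 (-0.35 to -0.04, adjusted p = 0.125) and Noc4l by 0.21 (-0.41 to -0.01, adjusted p = 0.19). Heatr1 was close to 0 untreated (-0.01 ± 0.12) and 0.31 higher after IL-33 (0.06 to 0.56, adjusted p = 0.128). Ddx21 was 0.21 higher after IL-33 (0.05 to 0.36, adjusted p = 0.107) and Noc2l 0.24 (0.07 to 0.40, adjusted p = 0.0932). The treated arrays of the genotypes did not overlap for Ddx21 and Polr1c, a separation that was not counted over all genes. Polr1c was -0.22 after IL-33 (-0.37 to -0.08, adjusted p = 0.0795). Its adjusted p was 0.0256 without the IL-33 array of wild-type mouse 2 and 0.0497 without that of knockout mouse 1. Untreated, Nol10 (-0.29, -0.49 to -0.08), Nop16 (-0.26) and Ltv1 (-0.23, -0.38 to -0.07) were lower in the knockout before adjustment, each with an adjusted p of 0.383. Proliferation genes were lower in the knockout too, by a median of 0.72 untreated and 0.86 after IL-33 with none past the threshold (14 and 18 of 18 at unadjusted p under 0.05). Their part in these differences was not tested.

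Of 106 other genes of the pathway, 2 differed between genotypes after IL-33, a share near the 2.21% of all genes. Nmd3, the export adaptor of the large subunit, read 7.83, 8.05, 7.72, 7.77 and 7.84 in IL-33 wild-type and 8.12, 8.17, 8.16, 8.09 and 8.35 in IL-33 knockout cells, with every knockout array higher (0.34 ± 0.07, adjusted p = 0.0227). Exosc7 was lower by 0.32 ± 0.08 (adjusted p = 0.041), with 7.83, 7.59, 7.71, 7.79 and 7.70 in wild-type and 7.60, 7.27, 7.37, 7.37 and 7.43 in knockout cells. The calls were kept under 21 and 12 of the 28 alternatives, with adjusted p of up to 0.0991 for Nmd3 and 0.107 for Exosc7 where the 2 groups alone were fitted; without the IL-33 array of wild-type mouse 1 they were 0.0637 and 0.114.

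**Figure D5:**
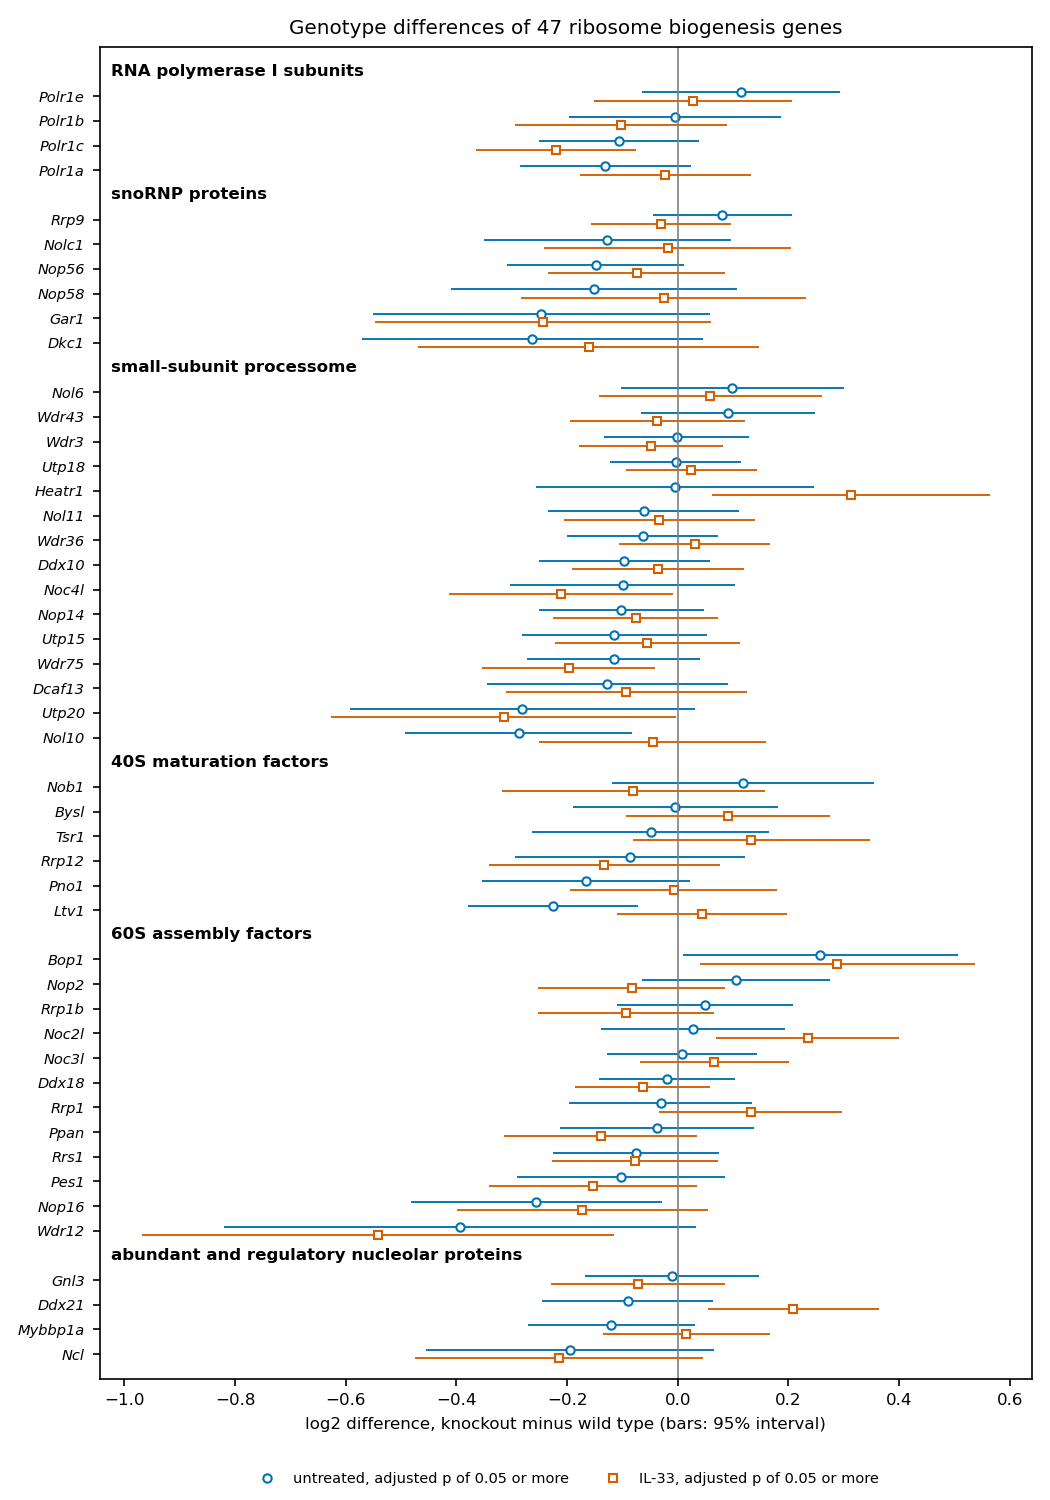
Log2 difference of knockout minus wild-type arrays for the 47 tested members, in untreated (circles) and IL-33 cells (squares), with bars of the 95% interval; no symbol is filled, since no adjusted p was under 0.05. Wdr12 lies farthest to the left and Heatr1 and Bop1 farthest to the right.

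Whether IL-33 moved a member differently in the 2 genotypes was tested with the interaction term of the same model. No member and no other gene passed it in limma (0% of 11767), and before adjustment p was under 0.05 for 2 of 47 members and 568 of all genes. With the mouse as a random block it called 26 genes and no member. The 2 members were Ddx21, whose rise was 0.30 larger in knockout cells (95% interval 0.08 to 0.52, adjusted p = 0.811), and Ltv1 (0.27, 0.05 to 0.49, adjusted p = 0.863). The interval of the largest estimate, that of Heatr1, was -0.04 to 0.67. For Rrs1 the interaction was -0.21 to 0.21. The median of the members was 0.03, and that of all genes -0.03. The members called in 1 genotype alone are therefore not shown to differ between genotypes.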

How the data were processed

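The authors deposited 1 normalized value per probe set and array from one-colour Affymetrix 3′ arrays hybridised with biotin-labelled cRNA, per the labels' protocols. The values are log2 intensities as read from their range (1.27 to 13.99, array medians 4.25 to 4.32). No source used here gives the background correction or the normalization. Precision is limited by how many arrays a group holds.

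Of 20628 probe sets, controls left out, 17826 had exactly 1 gene symbol in the platform annotation and 91 had several, and the latter named no gene. Where a gene had several probe sets the brightest mean over the 20 arrays was used, which left 17771 genes. A gene was tested if it exceeded the 40th percentile of the array (3.56 to 3.68) on at least 5 arrays. Older symbols of Polr1f, Polr1g and Polr1h were matched. On the deposited log2 values limma 3.58.1 (R 4.3.3) fitted 1 mean per group over all 20 arrays (16 residual degrees of freedom), with 5 contrasts: the IL-33 effect within wild-type and within knockout arrays, the genotype difference within untreated and within IL-33 arrays, and their interaction. P-values were adjusted by the Benjamini-Hochberg method over 11767 genes for each contrast. The fit was tested on simulated data.

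Untreated and IL-33 arrays with the same genotype and number were taken to come from the same mouse, an inference from the replicate numbers in the sample names. Their deviations from the group means correlated at 0.262 to 0.783 over genes, and all 10 correlated best with their own number. The mouse was therefore used as a fixed block, or as a random block (correlation 0.464), in alternatives. The spread measured is that between 5 mice per genotype. Of the members described array by array, 5 (Polr1c, Nop56, Gar1, Wdr43 and Tsr1) have probe sets that may bind several transcripts.

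The members and the lists were chosen with earlier results of these data known, so their counts are descriptions. Every member could be named. Array values are given, in each of 6 role classes, for up to 3 members with the largest difference in any contrast and the 1 with the smallest; of other lists up to 4 called genes with the largest difference are named, and Dusp5 and Myc always. One receptor gene is not reported here. Other settings were no filter or a 60th-percentile filter, quantile normalization, median centring, a fit of only the 2 groups compared, the mean of a gene's probe sets, a trended robust prior, and leaving out each array in turn.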

Additional observations from a re-analysis of the deposited data

Results flagged for a closer look

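Within the groups of 5 arrays, 2 array values of the members described one by one stood apart from the other 4 by more than Dixon's 95% critical value (0.71 of the group's range). In IL-33 wild-type cells, Ltv1 of mouse 1 was at 8.27 and the other 4 arrays lay between 8.02 and 8.07. In untreated wild-type cells, Rrp12 of mouse 3 was at 5.84 and the other 4 lay between 5.51 and 5.60. These are 2 of 96 such tests (24 members in 4 groups), and chance alone flags about 5% of them. Over all 47 tested members 6 of 188 tests stood apart.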

How the results depend on the processing

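No member described array by array that was called with IL-33 changed direction under an alternative run. Uncalled differences near 0 (Polr1e, Gar1, Mybbp1a, Rrp12 and Rrp1) changed sign under some alternatives, and so did the median of all genes and the split of genotype calls. In wild-type cells the members that fell numbered 7 with the replicate block (mouse, fixed), 2 with quantile normalization and 2 to 6 when 1 array was left out; the median of the members was 0.33 with quantile normalization. In knockout cells 2 fell with quantile normalization and 3 to 6 without 1 array, and the median was 0.39 and 0.24 to 0.30. The fixed block gave 32 rises and 7 falls in each genotype, and the random block 33 and 6 in wild-type and 32 and 7 in knockout cells. Of the members called in knockout cells 82.9% rose as deposited and 94.6% after quantile normalization. The 60th-percentile filter moved the median of all genes in knockout cells from -0.08 to -0.18, and with no filter it was 0.01 in each genotype.

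Between genotypes, untreated, 3 to 15 of all genes were called without 1 array. After IL-33, 0 to 3 members were called without 1 array (3 without wild-type mouse 2). Of all genes, 514 were called with the random block, 152 without a filter, 444 with the 60th-percentile filter, 161 with median centring, 24 in a fit of the 2 groups alone, and 33 to 1659 without 1 array. The lowest count was without IL-33 wild-type mouse 5 and the highest without IL-33 wild-type mouse 2. The split of higher against lower calls in the knockout was 116 to 144 as deposited, 93 to 68 with median centring, 85 to 67 with no filter, 20 to 4 in the fit of the 2 groups alone, 175 to 339 with the random block and 151 to 72 with quantile normalization. The interaction called 26 genes with the random block and 0 to 3 without 1 array. The causes were not tested. Among single-gene results of the members shown, 28 lost and 11 gained a call under an alternative and 1347 stayed on their side of the threshold.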
